A study of Mus musculus with 6 samples.

Results

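The SR splicing factors (genes Srsf1 to Srsf12) and the heterogeneous nuclear ribonucleoproteins (hnRNPs) were followed in mouse macrophages in which RhoA had been targeted. Members were the protein-coding genes of the deposited table whose symbol in GENCODE M21 begins with Srsf and a digit, or with Hnrnp. There were 31 of them, 11 SR and 20 hnRNP genes, among 55487 genes, and 30 reached 0.5 CPM, the count scaled to the library's total, in at least 3 of the 6 libraries. Srsf12 did not: it held 0 counts in every library, which allows a level of up to 0.0367 to 0.0498 CPM (3 counts of a library's total). The member nearest the limit on its upper side was Hnrnpa0, with 1.74, 0.527 and 1.01 CPM in the RhoA knockout libraries and 1.09, 1.68 and 0.726 CPM in the controls, before scaling. All 30 also passed the count filter of the test.

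One group was 3 libraries titled SMART-Cas9, with the genotype given as RhoA knockout, and the other was 3 libraries with the genotype wt, which the design text describes as the untreated line. All 6 came from RAW264.7, a mouse macrophage line that can be driven towards osteoclasts, and all 6 had RANKL and M-CSF, so no library shows the cells without these cytokines. No library had Cas9 with another target, so the edit and the Cas9 treatment cannot be told apart, and the labels do not say whether the edited cells were 1 clone or a pool. Separate cultures are not stated for the 3 samples of a group, so p-values measure only how far these samples spread, which can be technical.

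Totals ran from 60198645 to 81830819 counts per library. Rhoa RNA was not lower where the label says knockout: it had 34.2, 29.9 and 31.5 CPM in the knockout-labelled libraries, against 21.4, 25.8 and 24.4 CPM in the controls, a log2 fold change of 0.41 ± 0.12 (SE, edgeR adjusted p = 0.0136). The label was therefore not checked by the RNA level, and every direction below is that of the knockout-labelled libraries against the controls. Of 10 macrophage markers 9 were counted in every knockout-labelled library, and Mertk was at 0 there. Their summed level, most of it Lyz2, ran from 92730 to 105700 CPM in the knockout-labelled libraries and from 16230 to 19370 CPM in the controls. Most called macrophage markers went the other way: Itgam, Fcgr1, Cd14, Adgre1 and Ptprc were lower by edgeR, with log2 fold changes from -2.01 for Itgam to -0.39 for Ptprc, and Lyz2, Cd68 and Csf1r were higher, at 2.39, 1.30 and 1.17. The part of these markers in the results was not tested. Of 10 osteoclast markers Ctsk and Atp6v0d2 were higher, at log2 fold changes of 1.10 and 0.62, and Mmp9, Acp5 and Dcstamp lower, at -2.06, -1.43 and -0.77. Calcr and Oscar were at 0 in all 6 libraries, and the list's summed level was 25.4 to 31.3 CPM in the knockout-labelled libraries and 23.6 to 24.7 CPM in the controls. The summed level of 6 T cell, 5 B cell, 6 fibroblast and 6 neutrophil markers stayed at or under 0.223 CPM in the knockout-labelled libraries and 0.266 CPM in the controls. That of 6 epithelial markers was 0 except for 1.39 CPM in control replicate 1. The 10 most abundant genes held 44.1 to 47.8% of the knockout-labelled libraries and 62.0 to 63.2% of the controls. The Rhoa levels above and the levels below are CPM scaled by TMM factors, which adjust for such a few dominant genes. The marker sums are CPM without these factors.

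SR proteins carry RNA recognition motifs and a tail rich in arginine and serine. They bind exonic sequences of a pre-mRNA, help the spliceosome find the neighbouring splice sites, and are loaded and released as kinases phosphorylate their tails. The hnRNPs coat nascent transcripts and often act against SR proteins by hiding splice sites, and many also govern export, stability and translation of mRNA. Many genes of both families keep their own levels in check by splicing their transcripts into forms that nonsense-mediated decay destroys. In activated macrophages several hnRNPs are known for binding cytokine mRNAs. A count per gene adds all its transcripts together, so productive and decaying forms could not be separated here.

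Members moved in both directions. In these bulk samples fewer cells of a type and less RNA per cell cannot be told apart. Of the 30 genes, 13 rose, 8 fell and 9 were not called in the knockout-labelled libraries by edgeR's quasi-likelihood test at an adjusted p under 0.05 over 12930 genes. Over all genes tested 43.2% were called, 21.0% higher and 22.3% lower, against 70.0%, 43.3% and 26.7% of the members. The members' share of rises was above this background, and that of falls was near it. The background also holds genes of lower counts. With a stricter filter, at least 1 CPM in every library of either group, 13 members were higher and 7 lower. Of the 9318 genes then tested, Hnrnpa0 not among them, 2639 were higher and 2826 lower, a larger share in each direction. The members' share of rises was still above that of all genes, and their share of falls was now below it. The values that follow are again for 12930 genes, except where a library is left out. The median log2 fold change was 0.29 for the members and -0.03 for all genes tested, whose quartiles were -0.79 and 0.68. All 3 knockout-labelled libraries lay above all 3 controls for 13 members and below them for 9, against 27.5% and 28.3% of all genes tested. The members' count of falls varied more than that of rises. With library totals in place of TMM scaling, 13 members were higher and 4 lower. All genes tested shifted too, to 3097 higher and 2083 lower, against 2713 and 2879 with TMM. Without 1 library at a time 12 or 13 members were higher and 4 to 8 lower. Of the 13379 to 13621 genes tested in these fits 2286 to 2673 were higher and 2403 to 2640 lower. The members' count of falls was 5 without knockout replicate 2 or 3 and 4 without control replicate 1 or 2.

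**Figure D1:**
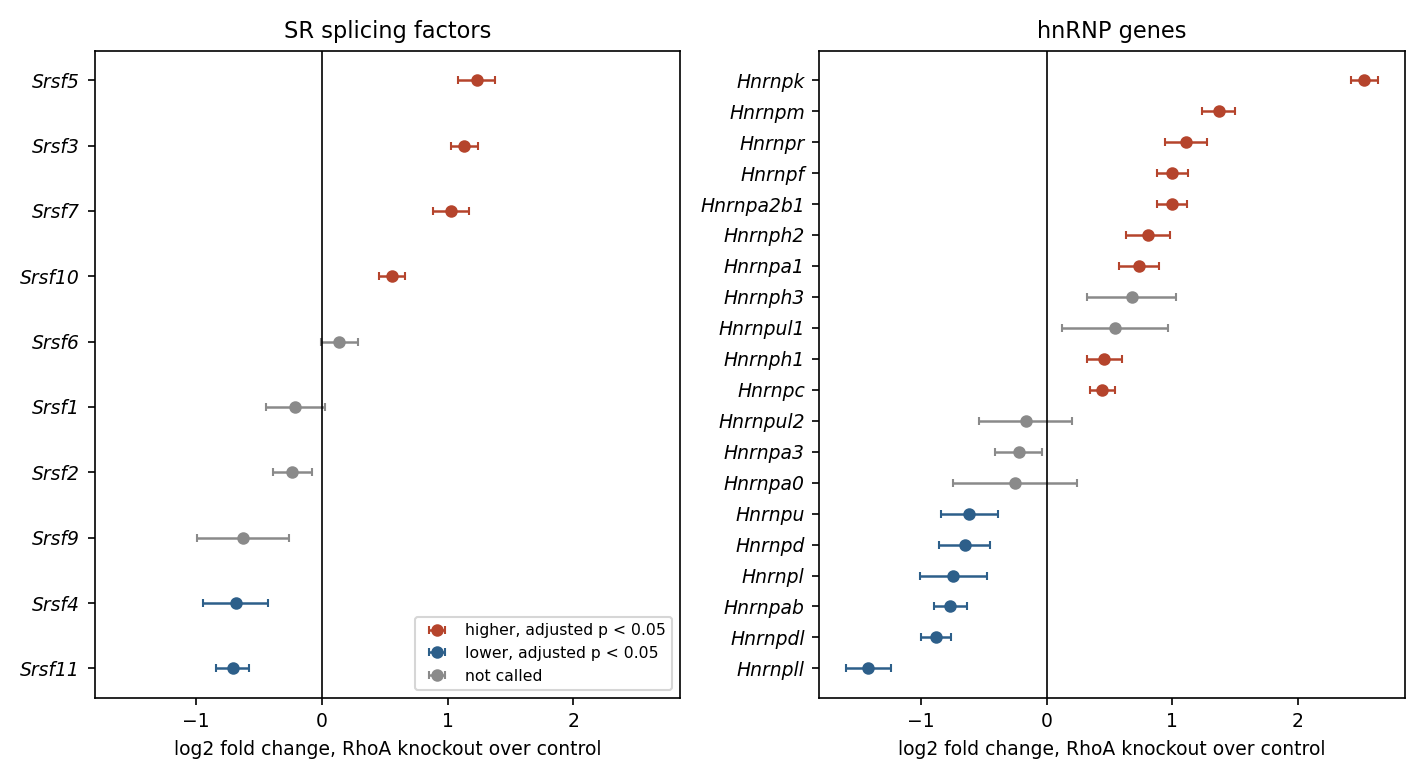
Log2 fold change of each member, knockout-labelled over control libraries (x axis), with its standard error as a bar, for SR genes on the left and hnRNP genes on the right, with red points called higher, blue lower and grey not called. Hnrnpk at 2.53 stands apart from the next member, Hnrnpm at 1.37, and Hnrnpll at -1.42 is at the other end.

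Among the 10 SR genes tested, 4 rose, 2 fell and 4 were not called. The 4 rises included the pair Srsf3 and Srsf7, related short SR proteins that also act as adaptors for mRNA export. Srsf7 (ENSMUSG00000024097.11, chromosome 17, 80200080 to 80207307, minus strand of GRCm38) had 70.8, 68.4 and 81.8 CPM in the knockout-labelled libraries, against 38.7, 41.3 and 28.5 CPM in the controls. The groups did not overlap, and knockout replicate 3 was the highest of all. Its log2 fold change was 1.03 ± 0.14 (SE, edgeR adjusted p = 1.08e-04). Srsf3 (ENSMUSG00000071172.13, chromosome 17, 29032628 to 29043373, plus strand) had 60.7, 56.3 and 55.4 CPM in the knockout-labelled libraries, against 27.4, 26.7 and 24.4 CPM in the controls. Both groups were tight and clearly apart, with a log2 fold change of 1.13 ± 0.11 (SE, edgeR adjusted p = 4.66e-06). Per kilobase of annotated exon, Srsf7 had 20.7 ± 2.01 CPM per kb in the knockout-labelled libraries and 10.2 ± 1.90 CPM per kb in the controls, the highest level of the SR genes in both groups.

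Srsf5, an SR protein with paired RNA recognition motifs, had 18.9, 18.7 and 17.3 CPM in the knockout-labelled libraries, against 8.96, 6.78 and 7.67 CPM in the controls. Every knockout-labelled library was above every control, and the log2 fold change of 1.23 ± 0.15 (SE, edgeR adjusted p = 3.28e-05) was the largest of the family. Srsf10, which acts as a general repressor of splicing when its tail is dephosphorylated, had 42.7, 41.4 and 38.9 CPM in the knockout-labelled libraries, against 27.98, 28.7 and 26.9 CPM in the controls. The groups were again apart, by the smaller log2 fold change of 0.56 ± 0.10 (SE, edgeR adjusted p = 9.99e-04). With an offset for the trend of fold change over exon length across all genes (the length trend), the value for Srsf10 was 0.84. All 4 SR rises were called under each of the 15 alternatives run.

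Srsf11, an SR-related protein, and Srsf4, one of the longer SR proteins, went the other way. Srsf11 had 11.5, 13.1 and 11.3 CPM in the knockout-labelled libraries, against 21.5, 17.9 and 19.4 CPM in the controls. The groups did not overlap, and the log2 fold change was -0.71 ± 0.13 (SE, edgeR adjusted p = 9.77e-04). This call was lost with the length trend as an offset, where the value was -0.34 (adjusted p = 0.0590). Srsf4 had 3.19, 2.79 and 3.01 CPM in the knockout-labelled libraries, against 4.90, 6.22 and 3.36 CPM in the controls. Control replicate 3 lay close to the other group, and the log2 fold change of -0.69 ± 0.26 (SE, edgeR adjusted p = 0.0491) was only just called. Leaving out any library but control replicate 3 ended the call, with adjusted p of 0.0809, 0.120 and 0.102 without knockout replicates 1, 2 and 3 and 0.113 and 0.193 without control replicates 1 and 2. A transcript on the opposite strand, Gm12992, shares 1532 exon bases with Srsf4 and held 7, 97 and 29 counts in the knockout-labelled libraries and 0 in each control. Whether the counting used strand is not given in the sources used here, so reads of such pairs cannot be told apart.

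The 4 SR genes not called were Srsf1, Srsf2, Srsf6 and Srsf9. Srsf1, the founding member of the family, had 3.27 ± 0.0681 CPM in the knockout-labelled libraries and 3.78 ± 0.727 CPM in the controls (SD, n = 3 each), and Srsf2, a marker of nuclear speckles, had 11.3 ± 1.89 CPM in the knockout-labelled libraries and 13.3 ± 0.428 CPM in the controls. Srsf6 had a log2 fold change of 0.14 ± 0.14 (SE, edgeR adjusted p = 0.477), and Srsf9, the closest relative of Srsf1, one of -0.63 ± 0.37 (SE, edgeR adjusted p = 0.194). All 3 knockout-labelled libraries were below all 3 controls for Srsf9, at levels that did not exceed 1.68 CPM. Srsf2 shares exon sequence with Mettl23 and Mfsd11 on the opposite strand. Mettl23 held up to 39.1% and Mfsd11 up to 39.5% of the count of Srsf2 in a library.

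Of the 20 hnRNP genes 9 rose, 6 fell and 5 were not called, with a median log2 fold change of 0.45. Hnrnpk (ENSMUSG00000021546.18, chromosome 13, 58391142 to 58403343, minus strand), a KH domain protein that binds cytosine-rich RNA and DNA, moved most. It held 54052, 56999 and 52004 counts in the knockout-labelled libraries and 9263, 6446 and 6657 in the controls. In scaled levels this was 659, 638 and 684 CPM in the knockout-labelled libraries, against 120.0, 110.1 and 113 CPM in the controls. The groups were 5.77-fold apart by the fitted log2 fold change of 2.53 ± 0.11 (SE, edgeR adjusted p = 1.28e-08), far more than the spread within either. Of the 12930 genes tested 327 had a larger log2 fold change. Over the 15 alternatives its value lay between 2.48 and 2.775.

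Hnrnpm and Hnrnpr, RNA recognition motif proteins of the nucleus, followed. Hnrnpm had 58.0, 57.5 and 60.4 CPM in the knockout-labelled libraries, against 25.1, 24.7 and 18.2 CPM in the controls, a log2 fold change of 1.37 ± 0.13 (SE, edgeR adjusted p = 6.28e-06). Hnrnpr had 20.1, 23.1 and 20.9 CPM in the knockout-labelled libraries, against 7.37, 11.5 and 10.8 CPM in the controls, a log2 fold change of 1.11 ± 0.17 (SE, edgeR adjusted p = 2.25e-04). The groups did not overlap for either gene, and the annotated exons of Hnrnpr, at 22199 bases, were the longest of the members. With the length trend as an offset its value was 1.81. Hnrnpc, which forms tetramers on nascent transcripts, had 71.0, 64.4 and 68.8 CPM in the knockout-labelled libraries, against 52.7, 48.7 and 48.6 CPM in the controls. This rise was the smallest of the called ones, 0.44 ± 0.10 (SE, edgeR adjusted p = 0.00327). March2, which shares exon sequence with Hnrnpm on the same strand, held up to 13.3% of its count.

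The hnRNPs that bind runs of guanine, Hnrnpf, Hnrnph1, Hnrnph2 and Hnrnph3, had 3 rises. Hnrnpf had 154, 136 and 138 CPM in the knockout-labelled libraries, against 80.6, 72.8 and 60.1 CPM in the controls, with a log2 fold change of 1.00 ± 0.12 (SE, edgeR adjusted p = 4.15e-05). Hnrnph2 had 18.4 ± 2.02 CPM in the knockout-labelled libraries and 10.5 ± 2.29 CPM in the controls (SD, n = 3 each), a log2 fold change of 0.81 ± 0.17 (SE, edgeR adjusted p = 0.00259). Knockout-labelled and control libraries did not overlap for these or for Hnrnph1, which had the smallest separation of the called members of this type, 0.46 ± 0.14 (SE, edgeR adjusted p = 0.0160). The call of Hnrnph1 was lost without knockout replicate 1 (adjusted p = 0.0909), control replicate 1 (0.0679) or control replicate 2 (0.0637). Hnrnph3 was not called at 0.68 ± 0.35 (SE, edgeR adjusted p = 0.145), and shares exon sequence with Rufy2 on the opposite strand, which held up to 122% of its count.

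Of the A and B type proteins, which bind nascent RNA widely and often favour exon skipping, Hnrnpa2b1 and Hnrnpa1 rose. Hnrnpa2b1 had 161, 136 and 137 CPM in the knockout-labelled libraries, against 76.2, 77.0 and 64.1 CPM in the controls, a log2 fold change of 1.00 ± 0.12 (SE, edgeR adjusted p = 2.62e-05). Hnrnpa1 had 81.3, 77.4 and 75.02 CPM in the knockout-labelled libraries, against 51.1, 56.0 and 33.5 CPM in the controls, a log2 fold change of 0.73 ± 0.16 (SE, edgeR adjusted p = 0.00292). Control replicate 3 was the lowest control for both genes, and no library of one group reached the other. Hnrnpa0, at 1.03 ± 0.530 CPM in the knockout-labelled libraries and 1.22 ± 0.463 CPM in the controls (SD, n = 3 each), was not called (adjusted p = 0.719). Hnrnpa3 is taken up below with its copies.

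The related Hnrnpd, Hnrnpdl and Hnrnpab all fell. Hnrnpd, also known as AUF1, is known for binding AU-rich elements in cytokine mRNAs. Hnrnpdl had 16.3, 19.6 and 16.5 CPM in the knockout-labelled libraries, against 30.4, 31.7 and 34.5 CPM in the controls, and Hnrnpab had 23.3, 21.7 and 20.9 CPM in the knockout-labelled libraries, against 42.6, 38.6 and 31.1 CPM in the controls. Their log2 fold changes were -0.88 ± 0.12 (SE, edgeR adjusted p = 1.09e-04) and -0.77 ± 0.13 (SE, edgeR adjusted p = 5.52e-04), with no overlap between groups. Hnrnpab shares exon sequence with Phykpl on the opposite strand, which held 476, 552 and 374 counts in the knockout-labelled libraries and 812, 785 and 565 in the controls. Hnrnpab itself held 1916, 1936 and 1589 counts in the knockout-labelled libraries and 3284, 2259 and 1831 in the controls. Hnrnpd had 4.80 ± 0.890 CPM in the knockout-labelled libraries and 7.54 ± 1.15 CPM in the controls (SD, n = 3 each), a log2 fold change of -0.65 ± 0.20 (SE, edgeR adjusted p = 0.0212). Its call was lost without knockout replicate 2 (0.0777), knockout replicate 3 (0.0707), control replicate 1 (0.0936) or control replicate 2 (0.0558), each an adjusted p, and the value was -0.34 with the length trend as an offset.

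Hnrnpl and Hnrnpll, a pair that binds CA-rich RNA, fell as well. Hnrnpll, known for directing the splicing of Ptprc (CD45) in lymphocytes, had 4.07, 3.12 and 3.76 CPM in the knockout-labelled libraries, against 9.78, 10.1 and 9.37 CPM in the controls. This was the largest fall of the members and lay well outside the spread of either group, with a log2 fold change of -1.42 ± 0.18 (SE, edgeR adjusted p = 5.02e-05), or -0.91 (adjusted p = 0.00136) with the length trend as an offset. Hnrnpl had 3.01, 2.07 and 3.97 CPM in the knockout-labelled libraries, against 5.61, 5.16 and 4.36 CPM in the controls. Knockout replicate 3 came near control replicate 3, and the log2 fold change was -0.74 ± 0.27 (SE, edgeR adjusted p = 0.0403). That call was lost without knockout replicate 1 (0.0881), knockout replicate 2 (0.126), control replicate 1 (0.129) or control replicate 2 (0.0824), each an adjusted p.

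Hnrnpu, a scaffold protein that links RNA to chromatin, had 24.7, 24.5 and 14.1 CPM in the knockout-labelled libraries, against 38.7, 34.0 and 24.3 CPM in the controls. The groups overlapped, since knockout replicates 1 and 2 were level with control replicate 3. The log2 fold change was -0.62 ± 0.23 (SE, edgeR adjusted p = 0.0492). The call was lost without knockout replicate 3, where the value was -0.39 (adjusted p = 0.127), without control replicate 1 (0.169) and without control replicate 2 (0.118). The value was -0.12 (adjusted p = 0.656) with the length trend as an offset. Cox20 on the opposite strand shares 804 exon bases with Hnrnpu and held 396, 384 and 452 counts in the knockout-labelled libraries and 122, 121 and 183 in the controls. The relatives Hnrnpul1 and Hnrnpul2 were not called, with log2 fold changes of 0.55 ± 0.42 (SE, edgeR adjusted p = 0.331) and -0.17 ± 0.37 (SE, edgeR adjusted p = 0.749). Both had their highest count in knockout replicate 1, Hnrnpul1 with 196, 93 and 88 counts in the knockout-labelled libraries and 100, 52 and 56 in the controls. Hnrnpul2 had 223, 109 and 106 counts in the knockout-labelled libraries and 179, 93 and 122 in the controls.

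**Figure D2:**
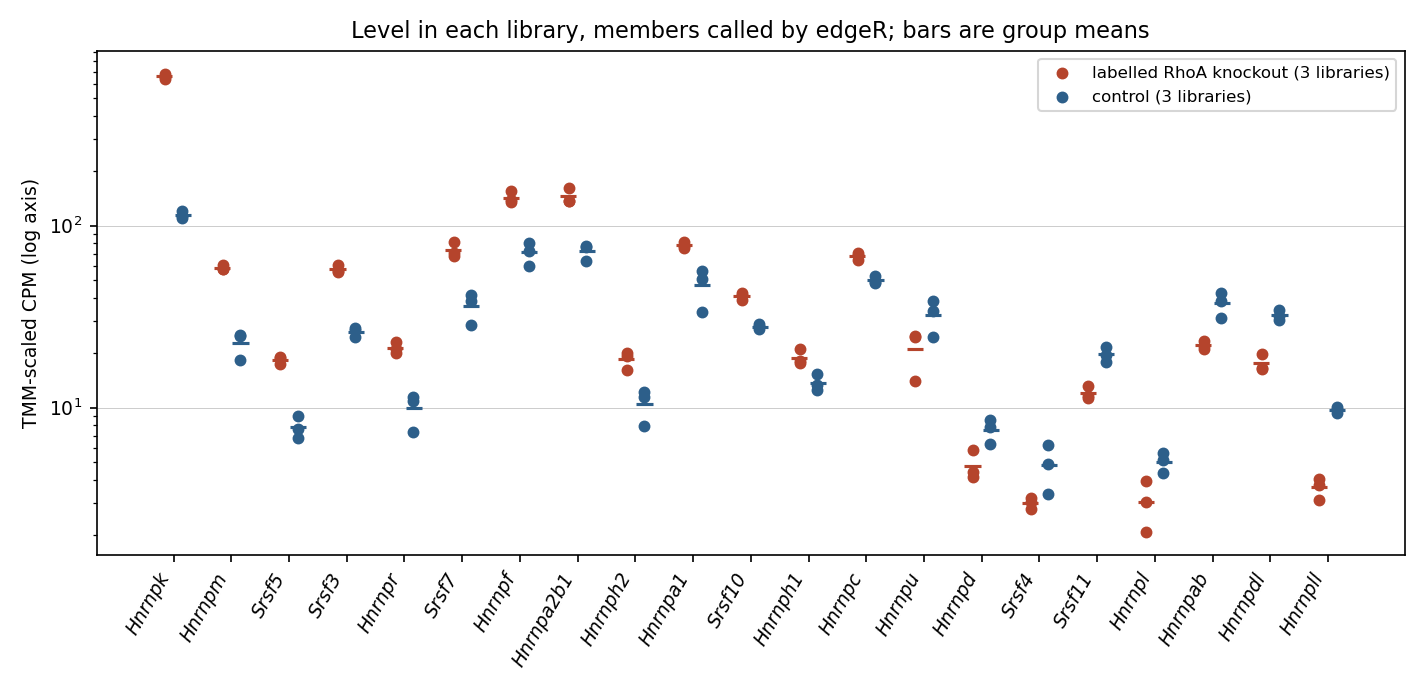
Level of the 21 called members in each library, as TMM-scaled CPM on a log axis, ordered from the largest rise to the largest fall; red points are knockout-labelled and blue points control libraries, and short bars are the means of 3. For Hnrnpk the red points lie near 660.0 CPM and the blue ones near 114 CPM, and Hnrnpu is the called member whose groups overlap.

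The makeup of the hnRNP pool differed between the groups, as a matter of levels and with no test over the members. Summed over 20 genes, hnRNP RNA was 1294 ± 40.3 CPM in the knockout-labelled libraries and 548 ± 45.6 CPM in the controls (SD, n = 3 each). Hnrnpk alone held 49.3, 50.8 and 52.9% of these counts in the knockout-labelled libraries and 20.6, 19.5 and 22.8% in the controls. Scaled to exon length, its share was 40.2, 41.7 and 43.5% in the knockout-labelled libraries and 15.1, 14.3 and 17.1% in the controls. Hnrnpf led the per-length order in the controls, at 23.4 ± 3.40 CPM per kb, and Hnrnpk led it in the knockout-labelled libraries, at 102 ± 3.57 CPM per kb. The share of Hnrnpab was 3.31, 3.29 and 3.09% in the knockout-labelled libraries and 12.4, 11.7 and 10.96% in the controls on the per-length scale. Exon length here is the union of all annotated exons, so a long, rarely used exon lowers a gene's per-length level.

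Without Hnrnpk the other 19 hnRNP genes summed to 634 ± 37.3 CPM in the knockout-labelled libraries and 433 ± 43.7 CPM in the controls. The 10 SR genes summed to 232 ± 3.32 CPM in the knockout-labelled libraries and 151 ± 10.6 CPM in the controls, all 3 knockout-labelled libraries above all 3 controls. Within the SR pool, Srsf3 took 25.8, 24.6 and 23.8% of the counts in the knockout-labelled libraries and 17.3, 17.1 and 17.6% in the controls. The Hnrnpd, Hnrnpdl and Hnrnpab trio summed to 44.2 ± 2.06 CPM in the knockout-labelled libraries and 77.1 ± 4.90 CPM in the controls, and the pair Hnrnpl and Hnrnpll to 6.67 ± 1.32 CPM in the knockout-labelled libraries and 14.8 ± 0.930 CPM in the controls.

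**Figure D3:**
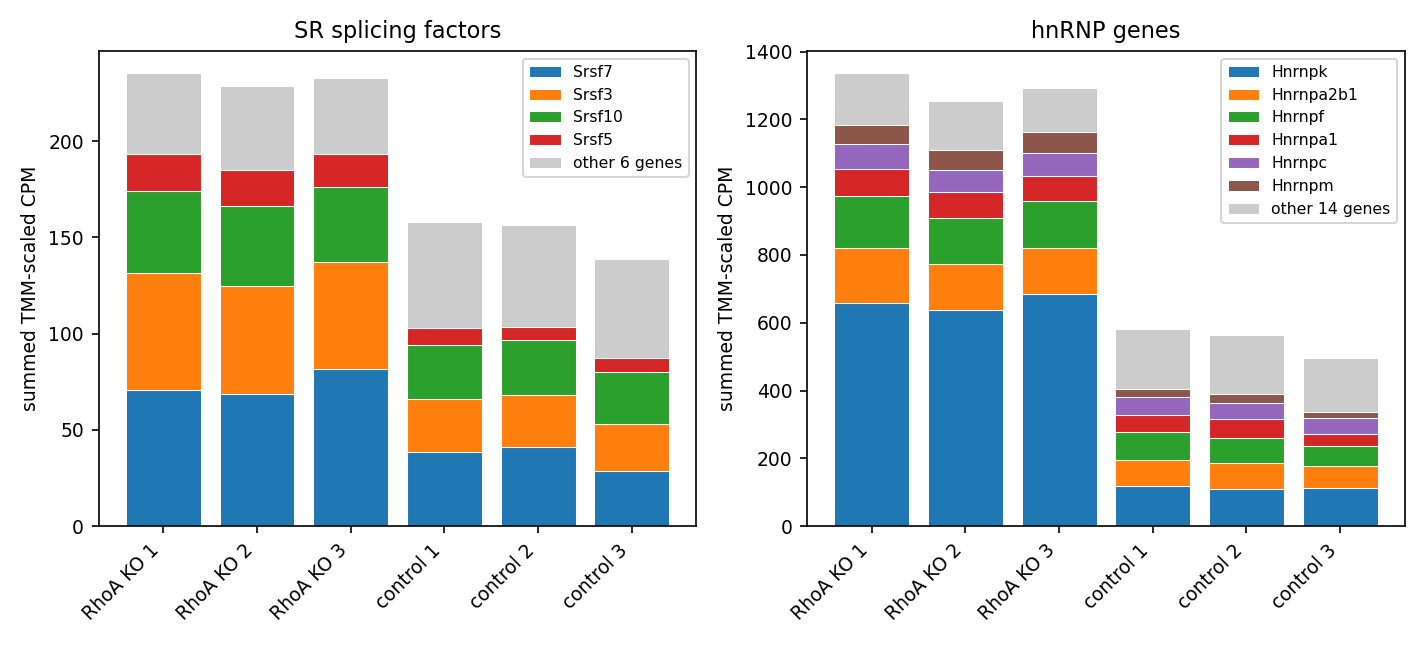
Summed TMM-scaled CPM of the 10 SR genes (left) and 20 hnRNP genes (right) in each library, split by the more abundant genes, with the rest in grey; the 3 knockout-labelled libraries come first in each panel. The Hnrnpk band runs to 638 CPM or more in the knockout-labelled libraries and at most 120.05 CPM in the controls.

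Hnrnpa3, a close relative of Hnrnpa1 and Hnrnpa2b1, has many processed pseudogenes, copies of its mRNA pasted back into the genome. They may change what its count shows. Among the copies shown, Gm6793 is annotated as protein-coding and Gm5641 as a transcribed processed pseudogene. The counts of both are part of the sum given below, and whether they come from RNA of these copies was not tested. Bases 208 to 267 of the coding sequence of Hnrnpa3, counted from the start codon, are shown with the same 60 bases of its 5 most counted copies, from GENCODE M21 transcripts on GRCm38. The genes are Hnrnpa3 (chromosome 2, 75659261 to 75669407, plus strand), Gm5641 (chromosome 3, 54481438 to 54482925, plus strand), Gm11847 (chromosome 4, 12232833 to 12233951, plus strand), Gm5940 (chromosome X, 80456742 to 80457809, plus strand), Gm6793 (chromosome 8, 112013433 to 112015036, minus strand) and Gm6161 (chromosome 1, 9574548 to 9575649, plus strand). Capitals mark letters that differ from Hnrnpa3. Of the stretches of this length aligned without gaps, this had the most differences summed over the 5 copies.
Hnrnpa3: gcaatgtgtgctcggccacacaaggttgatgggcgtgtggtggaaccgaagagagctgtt
Gm5641: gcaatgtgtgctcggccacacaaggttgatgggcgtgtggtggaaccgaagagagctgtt
Gm11847: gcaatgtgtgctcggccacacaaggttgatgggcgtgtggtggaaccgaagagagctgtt
Gm5940: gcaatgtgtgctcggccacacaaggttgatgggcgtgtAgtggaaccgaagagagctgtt
Gm6793: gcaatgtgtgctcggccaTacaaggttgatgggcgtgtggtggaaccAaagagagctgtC
Gm6161: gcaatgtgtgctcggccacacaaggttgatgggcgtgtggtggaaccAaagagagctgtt

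In that stretch Gm5641 and Gm11847 had no difference from Hnrnpa3, and Gm6793 had 3. Gm5641 matched at 100% identity over 1488 bp. Gm11847 matched at 98.04% over 1072 bp, so it differs from Hnrnpa3 elsewhere. A read from a stretch without differences cannot be placed by its letters alone, so the counts of Hnrnpa3 and its copies are uncertain. Hnrnpa3 itself had 5.19, 5.16 and 4.51 CPM in the knockout-labelled libraries, against 6.38, 5.59 and 5.36 CPM in the controls, with all 3 knockout-labelled libraries slightly lower and no call, at -0.22 ± 0.19 (SE, edgeR adjusted p = 0.376). Gm5641 had 15.1, 14.3 and 14.6 CPM in the knockout-labelled libraries, against 10.5, 11.5 and 8.08 CPM in the controls, a log2 fold change of 0.55 ± 0.16 (SE, edgeR adjusted p = 0.0138), and Gm11847 one of 0.76 ± 0.20 (SE, edgeR adjusted p = 0.00781). Of 28 copies with a match of at least 95% identity over 200 bp, 14 were tested; all 14 had a positive log2 fold change and 3 of them were called higher. Only 11.7% of the counts of Hnrnpa3 and its copies together lay on Hnrnpa3 in the knockout-labelled libraries and 19.5% in the controls.

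Summed with its copies, Hnrnpa3 had 43.9, 41.0 and 42.8 CPM in the knockout-labelled libraries, against 30.8, 33.7 and 25.1 CPM in the controls. The direction turned: every knockout-labelled library was now above every control, with a log2 fold change of 0.51 ± 0.12 (SE, edgeR adjusted p = 0.00541). The other members with copies elsewhere in the genome kept their direction when these were added. The value of Hnrnpk was 2.52 with its 2 copies, of which Gm7964 held 6226, 6757 and 5994 counts in the knockout-labelled libraries and 1119, 978 and 761 in the controls. Hnrnpf, with 8 copies, was at 1.13, Hnrnpa1, with 9, at 0.75, Srsf3, with 4, at 1.15 and Srsf5, with 1, at 1.24.

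**Figure D4:**
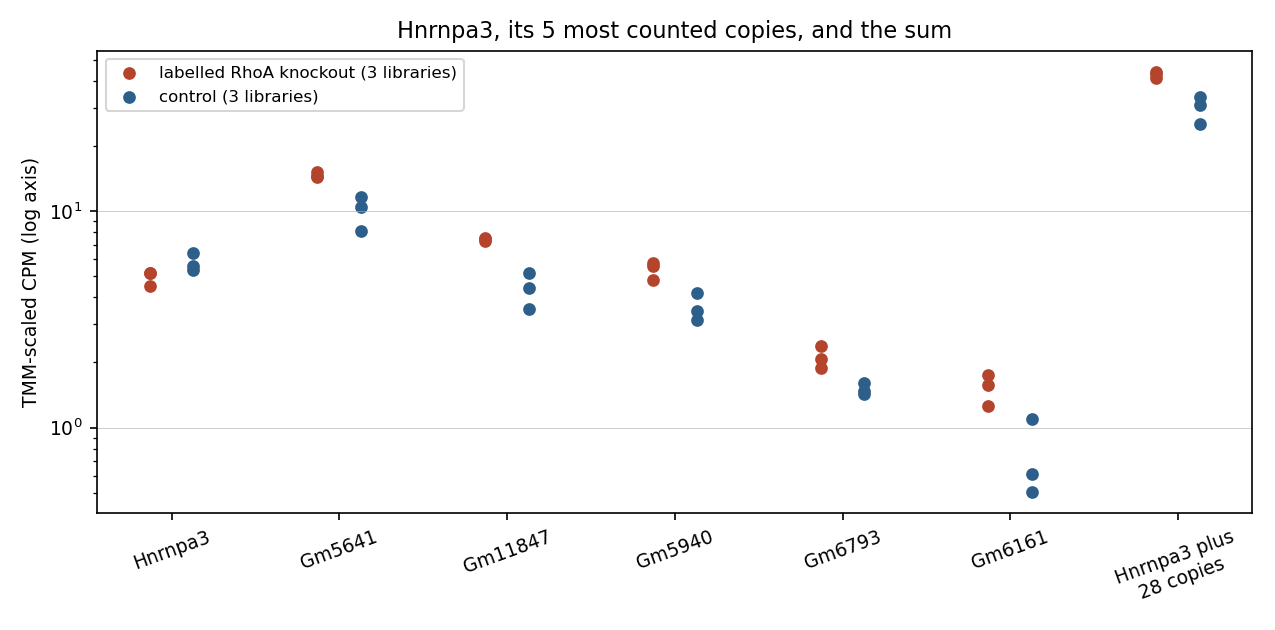
TMM-scaled CPM (log axis) in each library for Hnrnpa3, its 5 most counted copies and the sum of Hnrnpa3 with all 28 copies; red points are knockout-labelled, blue points control libraries. The red points lie below the blue ones for Hnrnpa3 alone and above them for each copy shown and for the sum, which is near 42.6 CPM against 29.9 CPM.

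Gene length and transcript structure differed among the members. Over all genes tested the median log2 fold change was 0.31 in the shortest of 4 equal groups by exon length and -0.43 in the longest, and 12 of the 30 members are in the longest group. The 13 members called higher had a median exon length of 5842 bases and the 8 called lower one of 6653 bases. With the length trend as an offset 13 members were higher and 4 lower, and of 12919 genes tested 2823 were higher and 2399 lower. The part of length in the members' changes was not tested beyond this. A transcript annotated as a target of nonsense-mediated decay exists for 9 of the 10 SR genes and 10 of the 20 hnRNP genes tested, and for 30.5% of the 10654 protein-coding genes tested. Among the members it was 7 of the 13 called higher (53.8%), 7 of the 8 called lower (87.5%) and 5 of the 9 not called (55.6%). The calls of all genes with such a transcript were not counted, and its part in the directions was not tested.

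The promoters of the members were read, and whether members moved together was not tested. RefSeq windows on GRCm38.p6, from 250 bases before to 50 bases after a gene's start, were at hand for 28 of the 30 members, Hnrnpll and Hnrnpul2 aside. The 250 bases before the start are shown, in the direction of transcription, for the largest hnRNP rise, Hnrnpk (chr13:58402118-58402367, minus strand), for Srsf3 (chr17:29032410-29032659, plus strand), which also rose, and for Hnrnpab (chr11:51606882-51607131, minus strand), which fell. Capitals mark matches on either strand to the motifs searched, here CCAAT, bound by NF-Y, and the TATA box letters TATAAA.
Hnrnpk: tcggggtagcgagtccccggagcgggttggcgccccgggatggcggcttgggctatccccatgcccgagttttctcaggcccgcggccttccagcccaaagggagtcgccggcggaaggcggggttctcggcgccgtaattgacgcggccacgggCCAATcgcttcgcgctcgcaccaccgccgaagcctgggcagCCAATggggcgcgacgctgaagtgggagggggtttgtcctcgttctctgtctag
Srsf3: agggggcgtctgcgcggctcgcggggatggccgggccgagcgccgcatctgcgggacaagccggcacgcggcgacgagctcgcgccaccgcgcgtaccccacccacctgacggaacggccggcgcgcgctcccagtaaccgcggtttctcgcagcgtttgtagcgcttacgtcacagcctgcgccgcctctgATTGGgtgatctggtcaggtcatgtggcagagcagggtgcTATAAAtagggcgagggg
Hnrnpab: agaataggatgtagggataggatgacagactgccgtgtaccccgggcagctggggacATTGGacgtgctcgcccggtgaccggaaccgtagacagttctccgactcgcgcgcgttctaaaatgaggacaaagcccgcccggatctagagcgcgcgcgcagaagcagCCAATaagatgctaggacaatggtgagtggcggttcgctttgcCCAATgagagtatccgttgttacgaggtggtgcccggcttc

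CCAAT occurred 2 times before Hnrnpk, 1 time before Srsf3 and 3 times before Hnrnpab, counting both strands. In any window of a gene it was found for 17 of the 28 members, 10 of the 13 members called higher, 2 of the 7 called lower with a window, and 41.1% of 27025 genes. With 1 window a gene it was 9 of 13, 2 of 7 and 37.9%. The ETS letters CCGGAAG were found for 6 of 28 members and 9.9% of genes, the E-box CACGTG for 5 and 8.1%, TATAAA for 4 and 15.7%, GCGCATGCG, part of the NRF1 motif, for 3 and 2.0%, and the cyclic AMP element TGACGTCA for 0 and 2.0%. In the same order, with 1 window a gene, these motifs were found for 6, 4, 4, 1 and 0 members. The shares of genes were then 9.1, 7.2, 14.2, 1.8 and 1.9%. The members' windows had a median of 67.8% G and C, against 52.7% for all windows. These are matches of letters, with no binding measured.

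The machinery around the members was described from lists of known splicing genes, by counts beside the 21.0% higher and 22.3% lower of all genes tested. Of 29 proteins of the U1 and U2 particles and their Sm cores, 15 were higher and 4 lower, with a median log2 fold change of 0.32. U2af1, the small subunit that reads the 3′ splice site, had 116 ± 12.5 CPM in the knockout-labelled libraries and 48.4 ± 2.21 CPM in the controls (SD, n = 3 each), and Snrpe and Snrpa1, components of the particles, had log2 fold changes of 1.64 ± 0.16 and 1.09 ± 0.11 (SE; edgeR adjusted p = 5.13e-06 and 1.14e-05). Gm10232, a processed copy of U2af1, and Snrpert, one of Snrpe, each held more than 10% of the parent gene's count in a library, so U2af1 and Snrpe are uncertain. Of 23 tri-snRNP and Prp19 complex genes 8 were higher and 1 lower (median 0.08). The smallest p-values were those of Bcas2 at 0.79 ± 0.11, Bud31 at 0.75 ± 0.11 and Snrnp40 at 0.94 ± 0.14 (SE).

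SR-related proteins and the enzymes that act on SR proteins leaned the other way, with 4 of 24 higher and 10 lower (median -0.17). Srrm2, a large scaffold of nuclear speckles, had 8.89 ± 1.19 CPM in the knockout-labelled libraries and 24.9 ± 2.84 CPM in the controls (SD, n = 3 each), and Clk4, a kinase that phosphorylates SR proteins, had 5.61 ± 0.532 CPM in the knockout-labelled libraries and 13.5 ± 1.11 CPM in the controls. Ppp1ca, a catalytic subunit of protein phosphatase 1, which can remove such phosphates, had a log2 fold change of 1.29 ± 0.12 (SE). EdgeR adjusted p-values were 7.46e-06, 4.13e-05 and 4.32e-06. Of 15 genes of nonsense-mediated decay and the exon junction complex 3 were higher and 6 lower (median -0.33). Smg1, the kinase of the decay pathway, was at -1.66 ± 0.14 (SE), while the junction core proteins Eif4a3 and Rbm8a were at 0.88 ± 0.10 and 0.91 ± 0.10. Other junction genes were called in both directions, with Magoh higher at 1.04 ± 0.18 and Magohb and Casc3 lower at -2.12 ± 0.45 and -1.21 ± 0.39 (SE). Gm44958, a processed copy of Magohb, held up to 59.8% of the count of Magohb in a library, so Magohb is uncertain.

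Of 24 tested hnRNP proteins and relatives with other symbols, 6 were higher and 3 lower (median 0.01). The share of rises was near the background, and that of falls was below it. Cirbp, a cold-inducible RNA-binding protein, had 7.54, 7.25 and 8.35 CPM in the knockout-labelled libraries, against 1.65, 1.66 and 1.51 CPM in the controls, with no overlap between groups. Ewsr1, a FET family protein, had 59.6, 99.4 and 109.5 CPM in the knockout-labelled libraries, against 15.0, 13.4 and 18.4 CPM in the controls, and shares exon sequence with Rhbdd3. Nono, a paraspeckle protein, was at 0.71 ± 0.11 (SE). Of 16 tested tissue-regulated splicing factors 3 were higher and 4 lower (median -0.03), with Celf1 and Mbnl2 at -1.51 ± 0.16 and -1.04 ± 0.13 (SE). Qk had 7.40 ± 0.708 CPM in the knockout-labelled libraries and 14.8 ± 1.35 CPM in the controls (SD, n = 3 each). Several of the falling genes are long, such as Smg1 with 23984 and Srrm2 with 12842 exon bases. With the length trend as an offset the 6 lists together had 47 genes higher and 16 lower, against 39 and 28 without it, and with library totals 43 and 15. All genes tested shifted in the same direction. They had 2823 higher and 2399 lower with the offset and 3097 and 2083 with library totals, against 2713 and 2879.

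Proliferation genes were set beside these lists. Of 22 such genes 19 were higher and the other 3 were not called (median 1.49). Birc5, a mitotic survivin, had 78.5 ± 6.43 CPM in the knockout-labelled libraries and 11.1 ± 0.721 CPM in the controls (SD, n = 3 each), Ccnb2, a mitotic cyclin, had 74.9 ± 0.745 CPM in the knockout-labelled libraries and 9.12 ± 2.95 CPM in the controls, and Mcm7, of the replicative helicase, was at 2.17 ± 0.12 (SE). Mcm7 is uncertain because it shares exon sequence with Ap4m1. The part of cell division in the rises of SR and hnRNP genes was not tested.

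**Figure D5:**
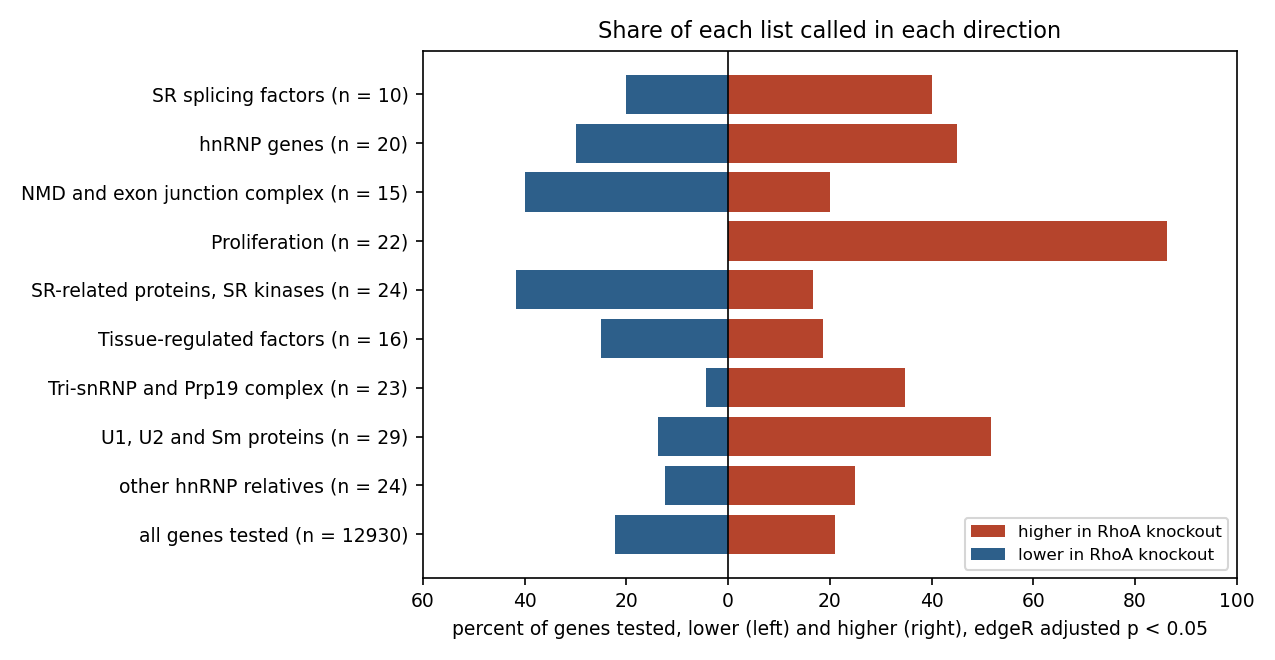
Share of each list called higher (red, right of zero) or lower (blue, left of zero) in the knockout-labelled libraries, in percent of its tested genes, at an edgeR adjusted p under 0.05; the number tested is in brackets and the bottom bar holds all 12930 genes. The U1, U2 and Sm list leans right, with 15 of 29 higher, and the SR-related list leans left, with 10 of 24 lower.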

How the data were processed

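RNA-seq counts of 6 libraries were used. The values are whole-number counts per gene as deposited, without normalization, from TruSeq libraries per the labels' protocols. The build is GRCm38, as the submitters' processing notes list it. The sources used here do not name the aligner or counter, or how strand and reads of several matches were treated. Column names gave the samples. Of 55487 gene IDs, 55227 had a symbol in GENCODE M21, whose exons gave positions and lengths.

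Counts were tested with edgeR 4.0.16 (R 4.3.3): filterByExpr, TMM factors, robust quasi-likelihood fit without covariates, Benjamini-Hochberg adjustment over 12930 genes, called under 0.05. The biological coefficient of variation in common was 0.32. A standard error is the fold change on the log2 scale divided by the square root of F. Copies were sought with blastn 2.17.0 at 95% identity over 200 bp. DESeq2 1.42.0, other scalings and filters, a replicate block, single libraries left out, a loess trend over exon length (span 0.3) as an offset, and merged copies were alternatives. A floor of 3 counts is 0.0367 to 0.0498 CPM, and floors cover counting error only. Members, lists and tests were chosen with earlier results of these data known. All members were named, and from each list up to 3 called genes with the smallest p, with Magoh, Magohb and Casc3 added. No 2 libraries agreed within sampling noise (chi-square per degree of freedom of 20.7 or more).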

Additional observations from a re-analysis of the deposited data

How the results depend on the processing

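Of the 13 members called higher, 12 kept call and direction in all 15 alternatives, Hnrnph1 being the exception. Of the 8 called lower 3 did: Hnrnpdl, Hnrnpab and Hnrnpll. Without 1 library at a time 12 to 13 members were higher and 4 to 8 lower, SR genes 4 higher and 1 to 2 lower, hnRNP genes 8 to 9 higher and 3 to 6 lower, and splicing-list genes 32 to 36 higher and 19 to 29 lower. With library totals, which moved the median of all genes to 0.15 and the share of rises among calls to 59.8%, against 48.5% with TMM, and likewise with the length offset, 4 members, 1 SR gene and 3 hnRNP genes were lower; list genes lower were 15 and 16. SR genes lower were also 1 with no filter, with the replicate block and with either addition of matching genes. The second of these, which leaves out genes at the member's own locus, was chosen after seeing the data. The cause was not tested. Directions turned for Hnrnpa3 with matching genes added (0.51 both ways), for Hnrnpul2 with library totals (0.032), the length offset (0.12) and without knockout replicate 2 (0.026; -0.628 without replicate 1), and for Hnrnpa0 without knockout replicate 2 (0.080; -0.666 without replicate 1) or control replicate 2 (0.056). None of the 3 was called in the comparison reported. DESeq2 called 13 members higher and 8 lower, as did edgeR. Hnrnpa0 was not tested under the stricter filter. Replicate numbers are shared by the groups, but same-numbered libraries did not deviate together (correlations -0.006, 0.028 and 0.014), and knockout replicate 1 correlated best with control replicate 2. With the number as a block 13 members were higher and 6 lower, and 2634 and 2738 of all genes. Depth limits Srsf12, at 0 counts, and members near 1 CPM such as Hnrnpa0, Hnrnpul1 and Srsf9.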
